A study of Mus musculus with 30 samples.

Results

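Gm12695 and 5 genes around it on mouse chromosome 4 were followed through heart RNA of 2 mouse models of Huntington's disease. The 6 genes (Gm12695, Cyp2j9, Gm830, Jak1, Tek and Ift74) are 6 of the 37620 rows of the deposited tables, found by Ensembl identifier. They had been selected on their measured values in R6/2 against wild-type (WT) hearts at 4 and 15 weeks, so their values, errors and calls in those comparisons are a description and not evidence about these genes. HdhQ150 and older WT hearts were not part of that choice and serve as controls, and tests are given there.

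The hearts came from 30 mice. R6/2 mice were hemizygous for a transgene of the mutated human HTT exon 1 driven by the HTT promoter, and were bred from R6/2 males and (CBA x C57BL/6) F1 females. HdhQ150 mice were homozygous for an expanded CAG repeat knocked into the mouse Htt gene, and came from crosses of CBA/Ca with C57BL/6J congenic lines, which gives them a (CBA x C57BL/6) F1 genome. WT mice accompanied each model at each age. The R6/2 comparisons rest on 4 hearts of each genotype per age. The HdhQ150 comparisons rest on 4 WT and 3 HdhQ150 hearts at 8 months and on 3 and 4 at 22 months. Libraries were made from total RNA of the entire heart, with summed counts between 33718139 and 62127770 per library. R6/2 is a single transgenic line, in which the transgene and the chromosome segment that carries it are inherited together. An effect of the transgene product and an effect of that segment cannot be told apart in these hearts.

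As background, a transgene lands at a place of its own in the genome, and transcription that starts in the transgene or is set free by the insertion can run into the genes nearby. The R6/2 transgene has been mapped to chromosome 4, within Gm12695. Gm12695 is a predicted protein-coding gene with little known function. Cyp2j9 encodes a cytochrome P450 of a family that oxidises arachidonic acid. Gm830 is a predicted non-coding transcript. Jak1 is a kinase bound to cytokine receptors, which phosphorylates STAT transcription factors. Tek (Tie2) is the endothelial receptor for angiopoietins. Ift74 is a subunit of intraflagellar transport complex B, which carries cargo into cilia.

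All 6 genes lie on chromosome 4, with positions given here from the GENCODE vM21 annotation of GRCm38, matched by identifier because the authors aligned to build 37. Gm12695 (ENSMUSG00000078639) occupies chr4:96723647-96785186 on the minus strand, with 11 exons and 1904 exonic bases in 1 annotated transcript. Cyp2j9 (ENSMUSG00000015224, chr4:96568429-96591578, minus strand) is the nearest tested gene, its start site 0.19 Mb below that of Gm12695. Gm830 (ENSMUSG00000084939, chr4:95464724-95487394, minus strand) starts 1.3 Mb below and overlaps Gm12707 on the other strand. Tek (ENSMUSG00000006386, chr4:94739289-94874976, plus strand) and Ift74 (ENSMUSG00000028576, chr4:94614491-94693229, plus strand) start 2.05 and 2.17 Mb below. Jak1 (ENSMUSG00000028530, chr4:101152367-101265282, minus strand) starts 4.48 Mb above. Ift74 overlaps Mir872 and, on the other strand, Lrrc19. Jak1 overlaps Gm12785 and, on the other strand, Raver2 and Gm24468. Whether the counting used strand is not given in the sources used here, so reads of overlapping genes may not be separated. Reads may also be shared among related genes of the Cyp2j family.

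The promoters of 3 of the 6 genes are shown because they hold the letters GTTGCTA, or TAGCAAC on the other strand. These letters are an element of the X-box motif bound by RFX factors, which are known for driving genes of cilia. The sequences run from 250 bases before to 50 bases after the RefSeq start site in GRCm38.p6, 5' to 3' on the gene's own strand, with the match in capitals. The Gm12695 window is chr4:96786701-96787000 (minus strand), upstream of the GENCODE start. The Gm830 window is chr4:95487480-95487779 (minus strand) and that of Ift74 is chr4:94614241-94614540 (plus strand).
Gm12695: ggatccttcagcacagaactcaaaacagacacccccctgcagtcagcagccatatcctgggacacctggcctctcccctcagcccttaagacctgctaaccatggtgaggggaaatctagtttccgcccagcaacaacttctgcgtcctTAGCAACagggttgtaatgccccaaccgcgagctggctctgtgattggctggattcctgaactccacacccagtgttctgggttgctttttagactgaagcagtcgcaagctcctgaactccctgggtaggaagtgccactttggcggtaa
Gm830: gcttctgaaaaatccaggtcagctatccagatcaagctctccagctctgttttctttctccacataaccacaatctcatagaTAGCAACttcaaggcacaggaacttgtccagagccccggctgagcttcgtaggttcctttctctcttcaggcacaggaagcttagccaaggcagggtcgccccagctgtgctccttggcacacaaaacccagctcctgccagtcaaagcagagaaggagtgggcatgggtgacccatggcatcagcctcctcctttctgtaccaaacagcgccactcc
Ift74: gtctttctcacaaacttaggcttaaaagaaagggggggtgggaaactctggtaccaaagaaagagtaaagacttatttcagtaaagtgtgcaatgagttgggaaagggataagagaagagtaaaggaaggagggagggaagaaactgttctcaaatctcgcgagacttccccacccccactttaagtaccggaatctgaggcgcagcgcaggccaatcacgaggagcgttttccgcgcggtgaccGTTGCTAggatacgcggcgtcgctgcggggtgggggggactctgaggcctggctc
The match begins at position -101 in Gm12695, -168 in Gm830 and -5 in Ift74, counted from the start site. Of all 32851 RefSeq promoter windows of this length, 1202 (3.66%) hold these letters on either strand. The motif was picked after the sequences had been seen, and a match is a description of letters. The windows of Cyp2j9, Jak1 and Tek hold no match. Jak1 has the most GC-rich of the 6 windows, at 64.7% GC with 29 CG pairs, against 52.0 to 54.7% GC in the other 5.

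Transcripts of other tissues were present in some hearts and bear on several results below. Over 10 marker lists of tissues and cell types, the summed counts scaled to normalised library size (CPM) of the airway and alveolar list exceeded 10 times the median in 8 libraries and those of the thymus list in 5. These were the airway list in WT mouse 12, R6/2 mouse 9 (both 4 weeks), R6/2 mice 5, 7 and 8 (15 weeks), HdhQ150 mouse 24 (8 months) and HdhQ150 mice 31 and 32 (22 months). The thymus list was high in WT mice 12 and 13, WT mice 1 and 2 (15 weeks) and HdhQ150 mouse 31. The multiciliated cell list was over that mark in 3 libraries (mice 8, 24 and 31), and the other 7 lists, cardiomyocyte lists included, were in none. Endogenous Htt was at 11.5 to 18.6 CPM in the HdhQ150 hearts of both ages and at 18.5 to 32.5 CPM in their WT controls, with the human transgene of R6/2 not measured in these tables. Y-linked transcripts went against the sex in the column heading in 8 of 30 libraries. At 22 months they were found in 2 of 3 WT and 0 of 4 HdhQ150 hearts. Bulk tissue cannot tell fewer cells of a type from less RNA per cell.

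Gm12695 was detected in every R6/2 heart and in few others. At 4 weeks the R6/2 mice 9, 14, 15 and 16 had 47, 60, 74 and 43 counts (1.12, 1.28, 1.3 and 0.974 CPM). Of the WT mice of that age, mice 10, 11 and 13 had 0 counts and mouse 12 had 4 (0.0810 CPM). At 15 weeks the R6/2 mice 5, 6, 7 and 8 had 51, 46, 34 and 93 counts (1.12, 0.959, 0.843 and 1.31 CPM), and each of the 4 WT mice had 0. The R6/2 and WT values did not overlap at either age.

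Summed over the groups there were 224 counts in R6/2 at each age. The WT sum was 4 at 4 weeks, a ratio of 51.9 per total count with a 95% exact binomial interval of 20 to 192, and all 4 WT counts came from 1 library. The WT sum was 0 at 15 weeks, which makes the R6/2 level at least 62.5-fold higher against a floor of 3 counts over the whole WT group. The interval and floors cover counting error only. Means in R6/2 were 1.17 ± 0.152 CPM at 4 weeks and 1.06 ± 0.204 CPM at 15 weeks (SD, n = 4 each). The 2 R6/2 ages overlapped, so the level did not differ between them beyond the spread of the libraries.

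**Figure D1:**
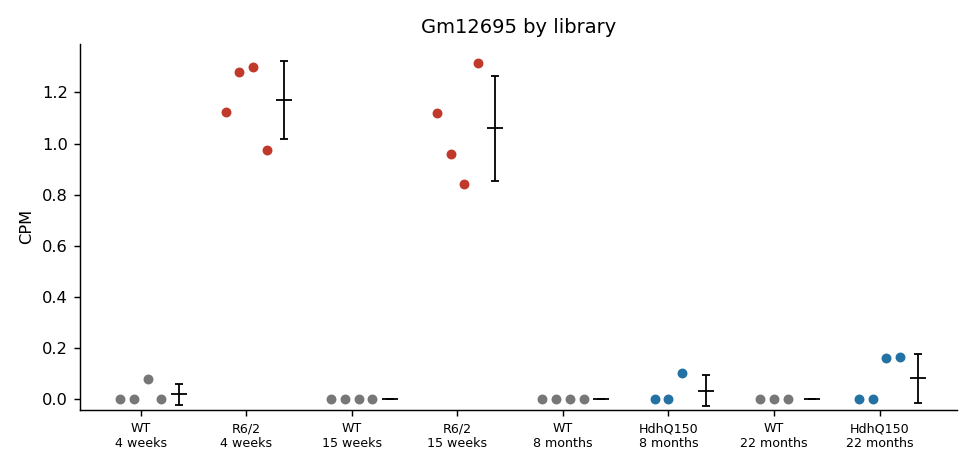
Gm12695 in CPM (vertical axis) in each of the 30 heart libraries, by group (horizontal axis; grey WT, red R6/2, blue HdhQ150), with the group mean and SD in black. The 8 R6/2 libraries lie between 0.843 and 1.31 CPM, and the other 22 between 0 and 0.167 CPM.

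In the control model Gm12695 was near the limit of detection. At 8 months the HdhQ150 mice 22 and 23 had 0 counts and mouse 24 had 5 (0.104 CPM). At 22 months the HdhQ150 mice 29 and 30 had 0 counts, and mice 31 and 32 had 9 and 7 (0.164 and 0.167 CPM). None of the 4 WT mice at 8 months or the 3 WT mice at 22 months had a count. The HdhQ150 and WT groups overlapped at 0, and Gm12695 was too low to be tested there. The lowest R6/2 level was 5.04 times the highest level in any other heart. A count of 0 allows up to 3 counts, which corresponds to 0.0608 to 0.0932 CPM in the libraries with 0 counts.

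The few counts outside R6/2 followed the airway transcripts. Of the 22 libraries outside R6/2, 4 had Gm12695 counts (WT mouse 12 and HdhQ150 mice 24, 31 and 32), and these 4 were also those of the 22 with airway sums over 10 times the median. Their airway sums were 173 to 581 CPM, against 0.932 to 29.3 CPM in the 18 libraries with 0 Gm12695 counts. Their multiciliated cell sums were 7.33 to 13.1 CPM against 0.531 to 2.03 CPM. Foxj1, the regulator of motile cilia, belongs to both of these lists, so the sums share it. It was at 3.24 to 5.40 CPM in the 4 and at 0 to 0.330 CPM in the 18. Scgb1a1, the secretory protein of airway club cells, was at 125 to 450 CPM in the 4 and at most 22.6 CPM in the 18. Sftpc, of the same airway and alveolar list, overlapped, at 0.0239 to 10.6 CPM in the 4 and 0 to 3.76 CPM in the 18. This coincidence was seen after the values were known, and the part of airway tissue in these counts was not tested.

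In R6/2 the airway transcripts and Gm12695 did not go together in the same way. Mice 6, 15 and 16 had airway sums below 29.3 CPM, the highest of the libraries with 0 counts, and still had 0.959 to 1.3 CPM of Gm12695. Mouse 8 had the highest airway sum of all, at 5182 CPM, with 1.31 CPM of Gm12695. Mouse 7, at 368 CPM, had the lowest level of the 8, at 0.843 CPM.

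**Figure D2:**
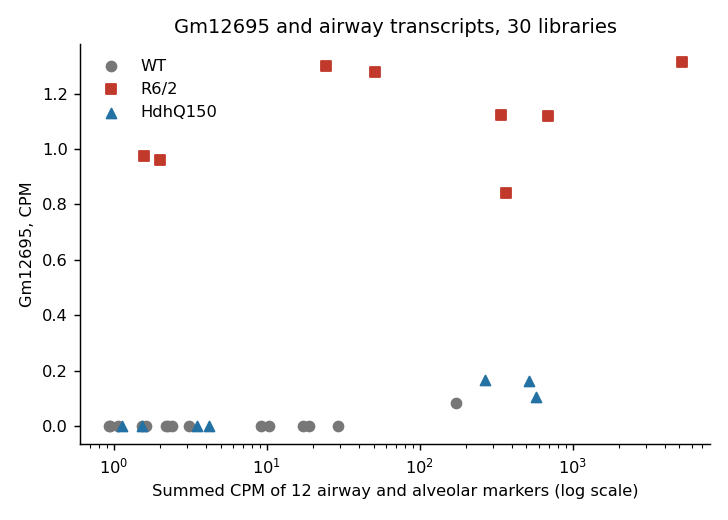
Gm12695 in CPM (vertical axis) against the summed CPM of 12 airway and alveolar markers (horizontal axis, log scale), 1 point per library (circles WT, squares R6/2, triangles HdhQ150). Outside R6/2, the 4 points above 0 lie between 173 and 581 CPM of airway markers, and the R6/2 points stay near 1 CPM over the whole range.

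Per length, in FPKM (fragments scaled by exonic length and by library size), the 6 genes differed widely in level. In WT hearts at 15 weeks the FPKM level was 28.0 ± 1.90 for Jak1, 10.8 ± 0.662 for Tek, 1.83 ± 0.462 for Ift74, 1.08 ± 0.0512 for Cyp2j9 and 0.0575 ± 0.0185 for Gm830 (SD, n = 4). Gm12695 was listed at 0 in each of them. In R6/2 hearts of that age Gm12695 reached 0.583 ± 0.148 FPKM, between Gm830 at 0.151 ± 0.0715 FPKM and Cyp2j9 at 1.499 ± 0.0773 FPKM. At 4 weeks the FPKM levels in R6/2 were 0.655 ± 0.0986 for Gm12695 and 0.813 ± 0.118 for Cyp2j9, whose ranges overlapped.

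Differences between R6/2 and WT were fitted for all genes with edgeR, and a gene was called where its adjusted p was under 0.1 and its fold change at least 1.3. At 4 weeks edgeR called 0 of the 6 genes and 0% of the 15478 genes tested. At an unadjusted p under 0.05 there was 1 of the 6 (and 513 of all genes), and DESeq2 called 1 of the 6, in both cases Gm12695. Its fitted log2 fold change was 5.56 ± 0.77 (SE). At 15 weeks 4 of the 6 were called (Gm12695, Cyp2j9 and Gm830 higher, Jak1 lower), where 14.3% of the 15463 genes tested were called. Because these contrasts chose the 6 genes, nothing is read from that count. The same 4 genes had R6/2 values that did not overlap the WT values at 15 weeks, as did 18.3% of all genes tested. The fitted log2 fold change of Gm12695 at 15 weeks, 8.65, depends on the prior count because all WT values were 0. Tek at a log2 fold change of 0.11 and Ift74 at 0.20 lay inside the call limits, and Cyp2j9 at 0.50 and Jak1 at -0.47 lay just past them.

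Cyp2j9 in R6/2 was level with WT at 4 weeks and above it at 15 weeks. At 4 weeks it was at 1.43, 1.5, 1.6 and 1.12 CPM in WT mice 10 to 13 and at 1.41, 1.43, 1.19 and 1.81 CPM in R6/2 mice 9, 14, 15 and 16, with a log2 fold change of 0.04 ± 0.22 (SE). At 15 weeks it was at 1.85, 1.68, 2.06 and 2.31 CPM in WT mice 1 to 4 and at 2.77, 3.04, 2.80 and 2.59 CPM in R6/2 mice 5 to 8. The lowest R6/2 heart was above the highest WT heart, and the log2 fold change was 0.50 ± 0.16. With 1 library left out it lay between 0.43 and 0.60. Without the WT mice 1 and 2, which carried thymus transcripts, it was 0.35 and not called.

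Of the other genes of the Cyp2j family only Cyp2j6 was expressed enough to be tested, 2 of 8 genes in all with Cyp2j9. Cyp2j6, which lies next to Cyp2j9, had a log2 fold change of 0.31 ± 0.18 at 15 weeks and of -0.09 ± 0.15 at 4 weeks, with overlapping groups and no call. Its FPKM level at 15 weeks was 1.86 ± 0.224 in WT and 2.29 ± 0.242 in R6/2. The other 6 genes of the family had mean FPKM levels under 0.01 in R6/2 and WT hearts at both ages.

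Gm830 was a very low transcript in all hearts. At 4 weeks it had 16, 13, 21 and 9 counts in WT and 10, 24, 36 and 22 in R6/2, and the groups overlapped, with a log2 fold change of 0.51 ± 0.38. At 15 weeks it had 11, 10, 5 and 7 counts in WT mice 1 to 4 (0.227, 0.203, 0.139 and 0.174 CPM) and 18, 14, 22 and 54 in R6/2 mice 5 to 8 (0.395, 0.292, 0.546 and 0.763 CPM). All 4 R6/2 hearts were above all WT hearts, with a log2 fold change of 1.41 ± 0.36 that lay between 1.11 and 1.61 with 1 library left out. The order of the R6/2 hearts differed from that of Gm12695, which was higher in mouse 5 than in mouse 7. Airway transcripts were high in 3 of the 4 R6/2 hearts and 0 of the 4 WT hearts of this age. With the airway sum as a covariate the log2 fold change was 0.79 and not called. R6/2 mouse 6, whose airway sum was 2.02 CPM, had 0.292 CPM of Gm830 against a WT maximum of 0.227 CPM. The part of airway tissue in the difference was not tested beyond these values.

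Jak1 was the 1 gene of the 6 that was called lower in R6/2. At 15 weeks it was at 117, 118, 144 and 130 CPM in WT mice 1 to 4 and at 102, 94.7, 83.9 and 88.1 CPM in R6/2 mice 5 to 8. The highest R6/2 heart was below the lowest WT heart, and the log2 fold change was -0.47 ± 0.09. With 1 library left out it lay between -0.52 and -0.40, and without the WT hearts with thymus transcripts it was -0.58. With the airway covariate it was -0.41 and not called. In R6/2 mouse 6, with a low airway sum, Jak1 was at 94.7 CPM.

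At 4 weeks Jak1 did not separate the genotypes, with 126, 170, 151 and 144 CPM in WT mice 10 to 13 and 127, 207, 162 and 118 CPM in R6/2 mice 9, 14, 15 and 16. The log2 fold change was 0.04 ± 0.18 and its sign changed with the setting, being -0.01 by limma on log2(FPKM + 1).

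Jak1 partners in the JAK-STAT pathway moved both ways at 15 weeks. Of 31 genes of cytokine receptors, JAK kinases, STAT factors and their inhibitors, all tested, edgeR called 4 higher and 5 lower. Over all genes tested edgeR called 14.3%. DESeq2 called 10 of the 31, and 2834 of the 14497 tested genes on chromosomes other than 4. The median log2 fold change of the list was -0.15 against -0.02 over all genes. Those higher were the receptor chains Lifr (0.52 ± 0.10) and Osmr (0.52 ± 0.16), the feedback inhibitor Socs2 (0.58 ± 0.15) and Pias3, an inhibitor of STAT3 (0.44 ± 0.07). Those lower, besides Jak1, were the interferon gamma receptor chain Ifngr2 (-0.50 ± 0.13), the STAT factor Stat5a (-0.53 ± 0.17), the common cytokine receptor chain Il2rg (-1.90 ± 0.54) and the inhibitor Socs1 (-3.44 ± 0.97). The other kinases Jak2 (-0.14 ± 0.10), Jak3 (-0.16 ± 0.12) and Tyk2 (0.07 ± 0.08) were not called. WT mice 1 and 2 of this age had thymus sums of 2143 and 1774 CPM, against at most 19.1 CPM in R6/2, and the part of lymphoid RNA in the difference of Il2rg and Socs1 was not tested. At 4 weeks edgeR and DESeq2 each called 0 of the 31, with 1 at an unadjusted p under 0.05.

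Tek did not separate R6/2 from WT at either age. At 15 weeks it was at 41.5, 38.8, 55.0 and 48.1 CPM in WT mice 1 to 4 and at 43.8, 45.8, 46.8 and 62.3 CPM in R6/2 mice 5 to 8. Mouse 8 stood above the other 3 R6/2 hearts, and without it the log2 fold change of 0.11 ± 0.15 became -0.01. At 4 weeks Tek was at 55.0, 35.4, 42.9 and 48.9 CPM in WT and 65.1, 48.0, 47.6 and 57.9 CPM in R6/2, with a log2 fold change of 0.25 ± 0.16. Of the 10 genes of the angiopoietin-Tie axis, the adaptor Dok2 was called at 15 weeks, where 14.3% of all genes tested were called. It was lower, at a log2 fold change of -1.63 ± 0.47. Dok2 is also a gene of lymphoid and myeloid cells, and its R6/2 and WT values did not overlap. The thymus sum of WT mouse 4 was 10.8 CPM, within the 8.58 to 19.1 CPM of the R6/2 hearts. The part of lymphoid RNA in the difference of Dok2 was not tested. The ligand Angpt1 was at 0.49 ± 0.18 and the phosphatase Ptprb at 0.30 ± 0.21, neither called by edgeR. The co-receptor Tie1, at -0.02 ± 0.15, was not called by edgeR either. In all, edgeR called 1 of the 10 genes and DESeq2 called 2. At 4 weeks edgeR and DESeq2 each called 0 of the 10, with 0 at an unadjusted p under 0.05.

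Ift74 overlapped between R6/2 and WT at both ages. At 15 weeks it was at 3.75, 3.40, 3.25 and 3.27 CPM in WT mice 1 to 4 and at 4.63, 3.46, 3.47 and 4.15 CPM in R6/2 mice 5 to 8, with a log2 fold change of 0.20 ± 0.15. At 4 weeks it was at 3.01, 6.53, 3.89 and 4.31 CPM in WT and 4.61, 4.25, 3.48 and 3.31 CPM in R6/2. The log2 fold change was -0.19 ± 0.25, and 0.05 without WT mouse 11. Of the 18 genes of intraflagellar transport complex B, 4 were called higher at 15 weeks and 1 lower, and 16 of the 18 had fold changes above 0, with a median log2 fold change of 0.21. DESeq2 called 5 of the 18. Over all genes edgeR called 14.3% and the median was -0.02. Those called higher were Ttc30b (0.75 ± 0.15), Ift57 (0.52 ± 0.11), Ift46 (0.50 ± 0.16) and Ttc26 (0.42 ± 0.14), all subunits of the complex. Hspb11 (Ift25) was lower, at -1.21 ± 0.25, and lies on chromosome 4 as well, 10.5 Mb from Gm12695. In the other comparisons with WT its groups did not overlap either, with log2 fold changes of -0.51 ± 0.23 in R6/2 at 4 weeks and of -0.29 ± 0.13 and -0.60 ± 0.21 in HdhQ150 at 8 and 22 months (adjusted p = 0.685 and 0.291), none of them called. At 15 weeks the FPKM level of Hspb11 was 6.15 ± 2.70 in WT and 2.51 ± 0.0870 in R6/2 hearts (SD, n = 4 each). WT mice 1 and 2 of this age had the thymus transcripts given above, and their part in that difference was not tested. Multiciliated cell sums reached 23.6 CPM in R6/2 and 2.03 CPM in WT hearts of this age, and their part in the differences of the list was not tested. At 4 weeks the list lay the other way, with 5 genes above 0 and 13 below and a median of -0.14. edgeR and DESeq2 each called 0 of the 18 there, with 0 at an unadjusted p under 0.05.

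**Figure D3:**
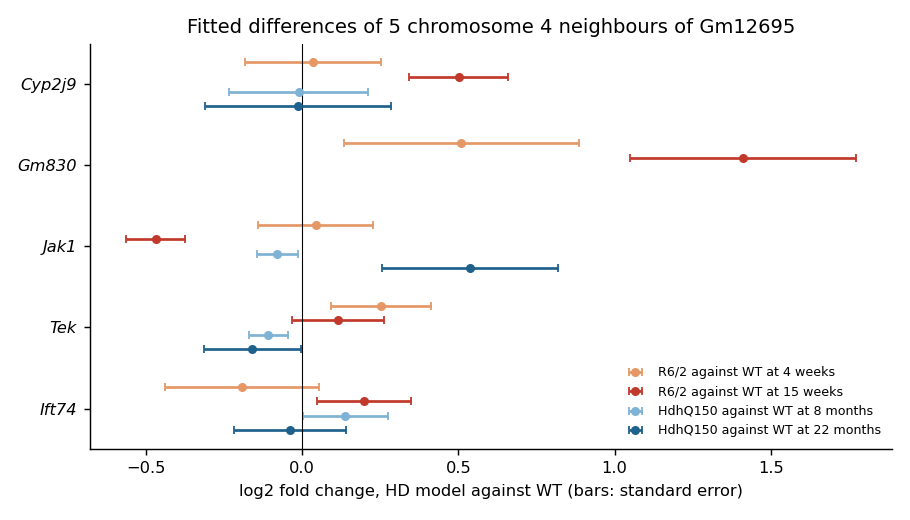
Fitted log2 fold change (horizontal axis) with its standard error of the 5 neighbours of Gm12695 (vertical axis) in R6/2 against WT at 4 and 15 weeks and in HdhQ150 against WT at 8 and 22 months. At 15 weeks Cyp2j9 and Gm830 lie above 0 and Jak1 below, and at 22 months Jak1 lies at 0.54 with a standard error of 0.28. Gm830 was too low to be tested in the HdhQ150 comparisons.

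By edgeR at 15 weeks, the stretch of chromosome 4 around Gm12695 was called about as often as the genome. Of the 10 tested genes on either side at 15 weeks, none was called apart from Cyp2j9 and Gm830. With Gm12695 itself 3 of 21 genes (14.3%) were called, beside 14.3% of all genes tested. Among the 16 of these outside the 6 genes the median log2 difference was 0.13, with 0 called by edgeR, 0 by DESeq2 and 2 at an unadjusted p under 0.05. On the side of Cyp2j9 they were Cyp2j6, Hook1, Fggy, Jun, Mysm1 and Plaa, with log2 fold changes from -0.24 (Plaa) to 0.31 (Cyp2j6 and Jun). On the other side they included Nfia, Gm12691, 0610025J13Rik, Tm2d1, Patj, L1td1, Kank4 and Usp1, from -0.58 (Usp1) to 0.30 (Tm2d1). The nearest of these, Nfia, starts 0.99 Mb above Gm12695, and was at 52.8 ± 10.9 CPM in WT and 62.2 ± 4.196 CPM in R6/2 with overlapping groups. At 4 weeks the 21 genes ran from -1.02 (Gm12691) to 5.56 (Gm12695), with 0 called by edgeR, 1 by DESeq2 and 2 at an unadjusted p under 0.05. Over all genes tested at 4 weeks, 3.31% had an unadjusted p under 0.05. The genes in the 4-week window that were not in the later one, Gm12657 and Atg4c, were at 0.15 ± 0.57 and 0.07 ± 0.17. Over 50 genes to either side at 4 weeks, 95 lay outside the 6 genes. Of these 8 had an unadjusted p under 0.05, DESeq2 called 1, and 6 did not overlap (2.11% over all genes). On chromosome 4 without the 6 genes, 65 of 957 had an unadjusted p under 0.05 and DESeq2 called 8. On other chromosomes these were 447 and 34 of 14515. The cause of that difference was not tested.

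From Ift74 to Jak1 30 genes were tested at 15 weeks and 4 were called, all of them among the 6 genes, which is near the 14.3% over all genes. Over 50 genes to either side 15 of 101 were called (DESeq2 called 21 of the same genes), and on the whole chromosome 119 of 966 (12.3%), against 2086 of 14497 (14.4%) on other chromosomes. The 11 called in the wider window that are not among the 6 genes were mostly far from Gm12695. Nearest were 3 genes beside Jak1: the transcript E130102H24Rik (1.06 ± 0.19), Leprot (0.40 ± 0.09) and the leptin receptor Lepr (1.43 ± 0.28), which start 4.57 to 4.93 Mb from Gm12695. Lepr was at 2.73 ± 0.690 CPM in WT and 7.38 ± 2.54 CPM in R6/2, and E130102H24Rik at 2.00 ± 0.412 and 4.18 ± 0.585 CPM. All 3 were higher in every R6/2 heart than in any WT heart, next to Jak1, which was lower. Further out, the ceramidase Acer2 (1.13 ± 0.25), the exchanger Slc24a2 (0.83 ± 0.23), Gm5860 (0.76 ± 0.23), Adamtsl1 (0.62 ± 0.16), the phosphatase Ptprd (0.44 ± 0.10) and Tmem59 (0.41 ± 0.09) were higher. The palmitoyltransferase Zdhhc21 (-0.40 ± 0.12) was lower, as was Hspb11. This count depended on the libraries: it was 7 of 101 without the WT hearts with thymus transcripts, 1 with the airway covariate, and between 6 and 22 with 1 library left out.

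**Figure D4:**
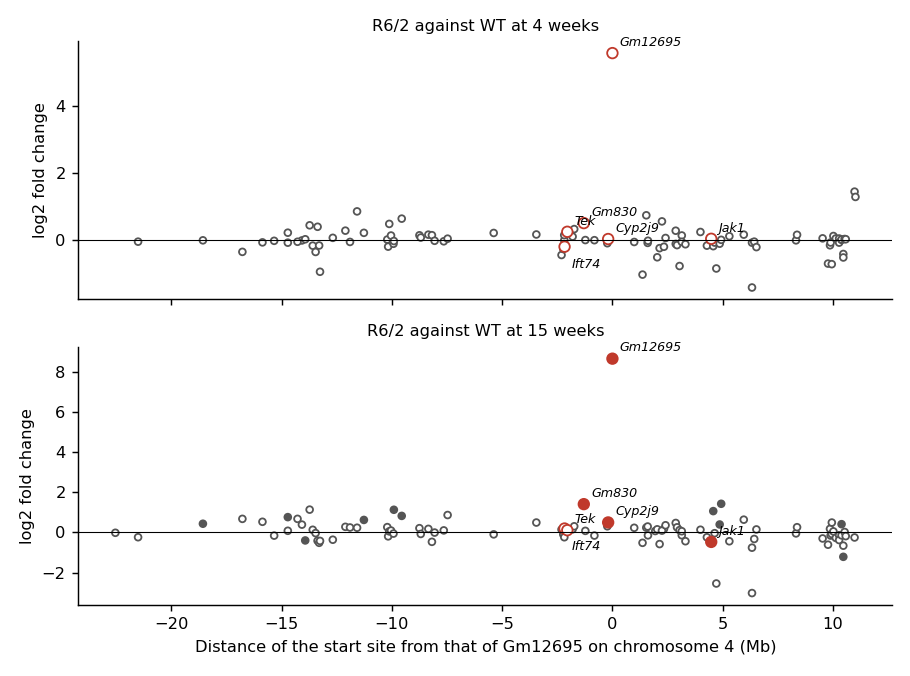
Log2 fold change of R6/2 against WT (vertical axis) at 4 weeks (upper panel) and 15 weeks (lower panel) for the 50 tested genes on either side of Gm12695, by distance of the start site in Mb (horizontal axis). Red marks are the 6 genes, grey the others, and filled marks were called: 0 of 101 at 4 weeks and 15 of 101 at 15 weeks. Gm12695 lies apart from its neighbours in both panels.

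The HdhQ150 model showed no call for any of the 6 genes. At 8 months Gm12695 and Gm830 were below the filter on low counts and 4 genes were tested, of which edgeR called 0, as it did 0% of the 15173 genes tested, and DESeq2 called 0. None of the 4 had an unadjusted p under 0.05 (1124 of all genes did). The log2 fold changes were -0.01 for Cyp2j9 (95% interval -0.45 to 0.42), -0.08 for Jak1 (-0.21 to 0.05), -0.11 for Tek (-0.23 to 0.01) and 0.14 for Ift74 (-0.13 to 0.40). The intervals for Jak1 and Tek were the narrowest of these. Jak1 was at 126, 134, 129 and 144 CPM in the WT hearts and at 122, 133 and 121 CPM in the HdhQ150 hearts. Gm830 had 2 to 6 counts in WT and 4 to 8 in HdhQ150 hearts, which overlapped.

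At 22 months again 4 genes were tested and edgeR called 0, as it did 0% of the 15569 genes tested, with 0 of the 4 called by DESeq2 and 0 at an unadjusted p under 0.05 (2591 of all genes). Jak1 had the widest spread. It was at 105, 112 and 118 CPM in WT mice 26 to 28 and at 108, 197, 223 and 110 CPM in HdhQ150 mice 29 to 32, so that mice 30 and 31 stood far above the rest and mice 29 and 32 lay within the WT range. The log2 fold change was 0.54 (95% interval -0.02 to 1.09, adjusted p = 0.346), and 0.32 without mouse 31. Mouse 31 had thymus and airway transcripts (528 and 518 CPM), whereas mouse 30 had 11.0 CPM of the thymus list, the lowest of its group. The log2 fold changes of the other genes were -0.16 for Tek (adjusted p = 0.575), -0.04 for Ift74 (adjusted p = 0.922) and -0.01 for Cyp2j9 (adjusted p = 0.984). Within 10 tested genes of Gm12695, 0 of 20 were called at 8 months and at 22 months by either tool, with 0 and 1 at an unadjusted p under 0.05.

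The JAK-STAT list leaned upwards in HdhQ150 hearts at 22 months without a call by edgeR. Of its 31 genes 28 had fold changes above 0, with a median log2 fold change of 0.36 against 0.05 over all genes. edgeR called 0 of the 31 and DESeq2 called 2, with 9 at an unadjusted p under 0.05. Those with groups that did not overlap included Stat2 (0.63 ± 0.16) and Tyk2 (0.52 ± 0.17), each with an adjusted p of 0.291. Over all genes tested in this comparison 19% did not overlap. The members with the largest differences, Il7r (4.61 ± 1.8) and Stat4 (4.47 ± 1.8), are genes of lymphocytes, and the thymus sum of mouse 31 was 528 CPM against 11.0 to 26.8 CPM in the other 3 HdhQ150 hearts. Its part in the list's lean was not tested. In the angiopoietin-Tie and transport lists, edgeR and DESeq2 called 0 genes at both ages, with at most 2 at an unadjusted p under 0.05. Of the 30 JAK-STAT genes tested at 8 months edgeR called 0 and DESeq2 called 1, with 5 at an unadjusted p under 0.05.

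Age in WT hearts gave the 1 call among the 6 genes outside the R6/2 comparisons, and it was for Tek. Tek was at 53.3, 56.5, 59.2 and 57.2 CPM in WT mice 17 to 20 at 8 months and at 40.0, 33.7 and 40.7 CPM in WT mice 26 to 28 at 22 months. All hearts of 22 months were below all hearts of 8 months. The log2 fold change was -0.59 ± 0.08 (adjusted p = 0.000807, edgeR), and it was called in each of the 7 fits that left out a library, between -0.65 and -0.51. Of the 4 genes tested 1 was called, against 23.4% of the 15195 genes tested in this comparison. Of the 6 genes 3 did not overlap between these ages (Tek, Jak1 and Ift74). Nor did 33 of the 96 other genes tested among the 50 on either side of Gm12695. The share over all genes is not given here. The endothelial list, which does not hold Tek, summed to 1227 to 1331 CPM at 8 months and 1221 to 1281 CPM at 22 months. The HdhQ150 hearts had 55.6, 51.4 and 49.4 CPM of Tek at 8 months and 39.0, 31.6, 25.8 and 38.6 CPM at 22 months, and the difference between those ages was not tested.

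Other genes of the angiopoietin-Tie axis changed with age in the same WT hearts. Ptprb, the phosphatase that acts on Tek, fell (log2 fold change -0.72 ± 0.08, adjusted p = 0.00027), as did the agonist Angpt1 (-0.58 ± 0.12, adjusted p = 0.00664). The ligand Angpt2, which can oppose Angpt1, rose (0.97 ± 0.38, adjusted p = 0.0742), with levels of 5.01 ± 1.01 CPM in the 4 younger hearts and 9.99 ± 7.29 CPM in the 3 older ones (SD) that overlapped. Tie1 was at -0.13 ± 0.09 and was not called (adjusted p = 0.311). In all, edgeR called 4 of the 10 genes, 3 lower and 1 higher, beside 23.4% of all genes tested, and DESeq2 called 3.

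**Figure D5:**
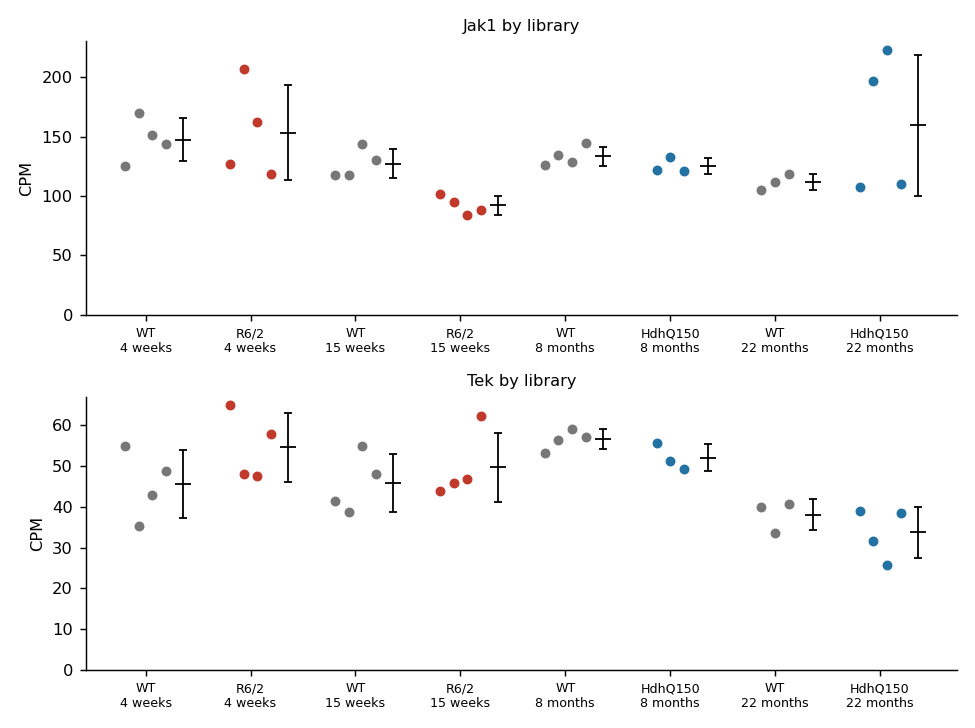
Jak1 (upper panel) and Tek (lower panel) in CPM (vertical axis) in each library by group (horizontal axis; grey WT, red R6/2, blue HdhQ150), with the group mean and SD in black. Jak1 is lowest in R6/2 at 15 weeks and spreads widely in HdhQ150 at 22 months, and Tek is lower at 22 than at 8 months.

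Jak1 was also lower in the older WT hearts, at 105 to 118 CPM against 126 to 144 CPM, without overlap. Its adjusted p was 0.0213, but the log2 fold change of -0.28 ± 0.08 was below the fold limit of a call. Of the 31 JAK-STAT genes 3 were called higher and 4 lower by edgeR, beside the 23.4% of all genes. Among these partners Jak2 (-0.43 ± 0.09, adjusted p = 0.00628), Pias1 (-0.39 ± 0.09, adjusted p = 0.00944), Il6ra (-0.71 ± 0.22, adjusted p = 0.0355) and Stat2 (-0.73 ± 0.26, adjusted p = 0.0556) fell. Il7r (1.49 ± 0.33, adjusted p = 0.0078), Ptpn6 (0.42 ± 0.14, adjusted p = 0.0463) and Cish (0.39 ± 0.16, adjusted p = 0.0857) rose. Thymus sums were 6.96 to 8.51 CPM at 8 months and 12.02 to 12.8 CPM at 22 months. Ift74 did not overlap either, at 2.64 to 3.26 CPM at 8 months and 3.38 to 4.19 CPM at 22 months, with a log2 fold change of 0.31 ± 0.14 that missed the threshold (adjusted p = 0.108). Of the 18 genes of its complex 1 was called by edgeR, Ift27, which rose (0.40 ± 0.14, adjusted p = 0.05) with overlapping groups. Cyp2j9 was at 0.01 ± 0.22 (adjusted p = 0.967).

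Over all 8 groups each gene had an order of its own. Gm12695 was ordered R6/2 at 4 weeks, R6/2 at 15 weeks and then the rest, and the 2 R6/2 groups did not overlap the next. Cyp2j9 was highest in R6/2 at 15 weeks (2.80 ± 0.188 CPM) and lowest in WT and R6/2 at 4 weeks (1.41 ± 0.205 and 1.46 ± 0.257 CPM), with every pair of neighbours in that order overlapping. Gm830 was highest in R6/2 at 15 and 4 weeks (0.499 ± 0.205 and 0.470 ± 0.166 CPM), followed by WT at 4 weeks (0.328 ± 0.102 CPM), and was at 0.0994 to 0.113 CPM on average in WT at 8 months and in both groups at 22 months. Jak1 was highest in HdhQ150 at 22 months (159.6 ± 59.5 CPM) and lowest in R6/2 at 15 weeks (92.1 ± 7.81 CPM), which did not overlap the next group up, WT at 22 months (111.7 ± 6.73 CPM). Tek was highest in WT at 8 months (56.6 ± 2.47 CPM) and lowest in HdhQ150 at 22 months (33.7 ± 6.30 CPM). Ift74 ran from 4.44 ± 1.498 CPM in WT at 4 weeks to 3.07 ± 0.293 CPM in WT at 8 months, and all its neighbouring groups overlapped.

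Across the 30 libraries the genes whose log2 CPM was most like that of each of the 6 were scattered over the genome. The libraries share age and genotype, so these Pearson correlations describe group differences as well as differences between hearts. Gm12695 was most like Numbl (r = 0.792), Slc6a9 (0.790, also on chromosome 4) and Lrp1 (0.776). Cyp2j9 was most like Fam13c (0.869), Sez6 (0.849) and Crip2 (0.844), and Gm830 most like Axl (0.788), Creb3l3 (0.785) and Sema7a (0.783). Jak1 was most like Sdad1 (0.834), Sec16a (0.783) and Wars2 (0.779). Tek was most like Ptk2 (0.920), the gene of focal adhesion kinase, Cav2 (0.886), a caveolin, and Arap3 (0.874). Ift74 was most like Ggnbp2 (0.832), Mknk2 (0.813) and Mtmr14 (0.751). Among the 6 genes themselves the highest correlation was between Gm12695 and Gm830 (0.668) and the lowest between Cyp2j9 and Jak1 (-0.690).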

How the data were processed

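Heart RNA of 30 mice, in 8 groups of genotype and age, was sequenced. The authors aligned paired reads in Omicsoft with OSA to mouse build 37 and deposited expected counts, without normalization, and FPKM values. Of the non-zero counts 70.9% were whole (tolerance 1e-09), and all were rounded. Every per-sample column was used. Columns name mice and groups, so groups came from the labels and numbers were not paired. The 6 genes and all gene lists were chosen with earlier results of these data known.

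Counts were tested in each comparison on its own libraries with edgeR 4.0.16 (quasi-likelihood, TMM, filterByExpr, Benjamini-Hochberg over all genes tested) in R 4.3.3, and checked on simulated data. A call needed an adjusted p under 0.1 and a fold of at least 1.3. Alternatives were DESeq2 1.42.0, RLE factors, no filter, 1 fit over all 30 libraries, limma 3.58.1 on log2(FPKM + 1) and log2(FPKM + 0.1) with and without a minimum mean FPKM of 0.1, leaving out libraries, and an airway covariate. CPM is per total count multiplied by the TMM factor of the library, from all 30 libraries. Each library is 1 mouse, and where titles give weeks for the hearts of 8 and 22 months, the age label in months was followed. Libraries of a group differed by more than sampling noise (a chi-square of at least 5.73 times its degrees of freedom), so none was taken for a duplicate. Promoters were matched for all 6 genes in RefSeq (GRCm38.p6).

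The named genes were, by rule, the 6 genes, the 10 tested genes to either side of Gm12695, genes called within 50, called genes of the family and pathway lists with the 3 largest changes where under 3 were called, and the 3 genes most correlated with each. Others were named after their values were seen, and some genes that the rule names are not reported here.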

Additional observations from a re-analysis of the deposited data

Results flagged for a closer look

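Over 34 groups of 4 libraries, 3 held a value far from the other 3 by Dixon's test, and chance flags about 1 group in 20. In WT hearts at 4 weeks, Gm12695 was at 0.0810 CPM in mouse 12 and at 0 in the other 3. With 3 values at 0 the test flags any other value, so nothing is read from this flag. Mouse 12 also had airway and thymus sums of 173 and 281 CPM. In R6/2 hearts at 15 weeks, Tek was at 62.3 CPM in mouse 8, above 43.8 to 46.8 CPM in the other 3, and mouse 8 had the highest airway sum of all libraries at 5182 CPM. In WT hearts at 8 months, Ift74 was at 2.64 CPM in mouse 19, below 3.17 to 3.26 CPM in the other 3.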

How the results depend on the processing

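No paired analysis was possible because the columns carry mouse numbers that stand in no sample label, so replicate numbers pair no libraries. Of 370 values of the 6 genes under alternatives, 309 kept their direction and side of the threshold, 24 lost the call, 5 gained it and 32 changed sign, and the cause was not tested. The count of the 6 genes called at 4 weeks was 0 in the main analysis and 1 with DESeq2 and with each of the 3 limma settings. At 15 weeks it was 4, and 2 with each limma setting and without the libraries with thymus transcripts, 1 with the airway covariate, and 2 to 4 with 1 library left out (2 without any 1 of WT mice 1 and 2 and R6/2 mice 5, 7 and 8). In the 8 fits at 15 weeks that left out a library the call was kept in 8 for Gm12695 and Jak1, 3 for Gm830 and 1 for Cyp2j9. In WT ageing the count was 1, and 1 to 2 with a library left out (2 without WT mouse 26). The count was 0 under every alternative run for HdhQ150.

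Sign changes by limma on FPKM were of small differences. Jak1 at 4 weeks became -0.014 (log2(FPKM + 1), with and without the filter) and -0.015 (log2(FPKM + 0.1)). In that order of pseudocounts, Cyp2j9 at 8 months became 0.017 and 0.029, and at 22 months 0.075 and 0.13. Tek at 22 months became 0.029 and 0.032, and Ift74 0.14 and 0.20. Tek at 15 weeks became -0.063 without the libraries with thymus transcripts and ranged from -0.01 to 0.22 with 1 library left out. Leaving out 1 library at 4 weeks gave ranges of -0.079 to 0.13 for Cyp2j9, -0.13 to 0.15 for Jak1, -0.34 to 0.047 for Ift74, and 5.17 to 8.75 for Gm12695 (the highest without WT mouse 12). For Cyp2j9 it gave -0.15 to 0.17 at 8 months, -0.16 to 0.21 at 22 months and -0.21 to 0.12 in WT ageing. For Ift74 at 22 months it gave -0.13 to 0.042.

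Counts over all genes at 15 weeks were 2205 by edgeR, 3395 by DESeq2, 895 by limma on log2(FPKM + 1) and 137 with the airway covariate. Leaving out a library gave 659 (without R6/2 mouse 5) to 3376 (without WT mouse 4). Depth limits Gm12695 and Gm830 most: gene-level counts of this size do not show which exons or strand the reads came from.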
